A study of Mus musculus with 2 samples.

Results

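The genes described here are 41 cell cycle genes, listed by name with earlier results of these data known. They are 19 genes of the G1/S transition and DNA replication, from Tyms to Uhrf1, and 22 genes of G2 and mitosis, from Plk1 to Ube2c. The rule that lists them puts the first 20 in the replication set, but the 20th is Plk1, a mitotic kinase. Plk1 was therefore counted with mitosis, and the other placing is given for the medians of the sets and the motif counts. Of the 41 genes, 39 were measured by a probe that carries their symbol alone, out of 22180 genes on the array. No such probe was found for the cyclin genes Ccne2 and Ccnb1, and no value is given for them.

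The samples were dorsal skin of female mice of the inbred NC/Nga strain, which readily develops dermatitis, read on Affymetrix expression arrays. All mice entered at 6 weeks of age and had dermatitis induced with an ointment of Dermatophagoides farinae (house dust mite) body extract, applied 2 times a week for 6 weeks. The control group received no other named agent. The ZAG group also received recombinant ZAG (zinc-alpha-2-glycoprotein, a secreted protein) on the skin 2 times a week for 6 weeks, at 1 µg/mL per the series design text, and skin of both groups was taken at 13 weeks. The design text names 3 mice in each group, but the table holds 1 column per group, so each group is 1 array here, and whether a column is 1 mouse, a pool or a mean is not stated in the labels. There is thus no replicate error and no p-value, and every difference describes these 2 arrays. There is no group without dermatitis, so levels in resting skin are not known from these data. The brightest listed markers of suprabasal keratinocytes and of fibroblasts were high on both arrays. The suprabasal keratin gene Krt10 was at log2 12.15 in control and 12.16 with ZAG, and the dermal matrix gene Dcn at 11.55 and 11.59. These genes do not stand for their lists. With ZAG, 7 of 10 suprabasal genes (median difference -0.18) and 8 of 10 fibroblast genes (median -0.52) were lower.

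A dividing cell copies its DNA in S phase and separates the copies in mitosis. At the G1/S transition cyclin E and its kinase release E2F factors from the RB proteins, and E2F switches on the enzymes that supply nucleotides and the proteins that load and run the replicative helicase. Later the genes of mitosis come on, driven by B-MYB, FOXM1 and the MuvB complex, which binds the cell cycle homology region (CHR) of their promoters, often beside CCAAT boxes bound by NF-Y. In skin the dividing cells are mainly basal keratinocytes and the matrix of growing hair follicles, with immune and stromal cells adding to them in inflamed skin.

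The 2 sets of genes had different letters in their promoters, a description that uses no array value. Genes of these kinds are known for E2F and CHR control, as told above, so the difference is not independent of the choice of genes. RefSeq promoter windows (build GRCm38.p6) of 300 bases, from 250 before to 50 after the start site, were at hand for 33 of the 41 genes: 16 of replication and 17 of mitosis. Aurkb, Foxm1, Kif20a, Mcm4, Tpx2, Ccna2, Ccne2 and Gins2 were not matched. Both strands were searched for the E2F motif (TTTGGCGC, TTTGCCGC, TTTCGCGC or TTTCCCGC), the CHR motif (TTTGAA or TTCGAA) and the NF-Y motif (CCAAT), and in these windows 1 pair of matches to different motifs shared bases. The following 200 bases before the start site show each pattern, 5′ to 3′ on the gene's strand, with every match in capitals. They were chosen after the matches were seen: Mcm6 and Cdc6 for E2F, Mcm2 for a replication gene with CHR and no E2F match, and Cdk1, Cdc20 and Mki67 for CHR beside CCAAT.
Mcm6 (chr1:128359706-128359905, minus strand): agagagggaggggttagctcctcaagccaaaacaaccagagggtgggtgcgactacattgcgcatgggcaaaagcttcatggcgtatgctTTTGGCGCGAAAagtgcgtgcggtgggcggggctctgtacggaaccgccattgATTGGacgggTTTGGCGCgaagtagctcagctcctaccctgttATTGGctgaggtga
Cdc6 (chr11:98907951-98908150, plus strand): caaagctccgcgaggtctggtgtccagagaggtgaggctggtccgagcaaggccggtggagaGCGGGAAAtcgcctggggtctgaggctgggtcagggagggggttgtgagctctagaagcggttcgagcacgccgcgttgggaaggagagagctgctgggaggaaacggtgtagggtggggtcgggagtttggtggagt
Mcm2 (chr6:88898781-88898980, minus strand): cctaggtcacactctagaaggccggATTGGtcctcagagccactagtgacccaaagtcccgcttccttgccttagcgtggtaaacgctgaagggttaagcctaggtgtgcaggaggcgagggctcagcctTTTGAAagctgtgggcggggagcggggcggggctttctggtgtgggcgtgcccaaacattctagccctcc
Cdk1 (chr10:69352913-69353112, minus strand): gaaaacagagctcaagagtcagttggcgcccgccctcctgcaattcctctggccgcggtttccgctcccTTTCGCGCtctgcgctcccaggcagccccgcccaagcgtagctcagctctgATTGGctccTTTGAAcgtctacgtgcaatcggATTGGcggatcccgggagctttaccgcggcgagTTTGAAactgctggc
Cdc20 (chr4:118437344-118437543, minus strand): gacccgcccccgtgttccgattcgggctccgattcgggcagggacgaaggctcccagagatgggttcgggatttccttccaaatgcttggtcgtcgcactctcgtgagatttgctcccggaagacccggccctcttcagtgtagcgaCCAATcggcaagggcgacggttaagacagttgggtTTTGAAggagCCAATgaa
Mki67 (chr7:135716380-135716579, minus strand): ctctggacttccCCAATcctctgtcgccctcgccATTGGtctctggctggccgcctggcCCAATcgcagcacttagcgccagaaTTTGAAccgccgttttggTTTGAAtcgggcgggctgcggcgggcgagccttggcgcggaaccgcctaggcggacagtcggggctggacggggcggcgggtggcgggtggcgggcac

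The E2F motif was in the window of 7 of 16 replication genes (43.8%) and of 1 of 17 mitosis genes (5.88%), against 3.29% of 17491 protein-coding genes with a window. The replication genes were Cdc6, Cdt1, Mcm3, Mcm5, Mcm6, Mcm7 and Uhrf1, so the helicase family made up most of them, and the mitosis gene was Cdk1. With the shorter E2F letters GCGGGAA or GGCGGGA the counts were 9 of 16 replication genes and 5 of 17 mitosis genes (29.4%), against 19.5%. In the 250 bases before the start site, the longer letters were in 5 of 16 replication genes (31.3%), against 2.72% of protein-coding genes. Cdt1 and Mcm3 matched only after the start site. The mitosis count before it was 1 of 17. The CHR motif went the other way, in 2 of 16 replication genes (12.5%) and 13 of 17 mitosis genes (76.5%), against 20.2% of protein-coding genes. In the 250 bases before the start site alone it was in 8 of 17 mitosis genes (47.1%), against 18.4% of protein-coding genes. The 2 replication genes were Mcm2 and Mcm7. NF-Y boxes were in 9 of 16 replication genes (56.3%) and 15 of 17 mitosis genes (88.2%), against 42.3%. With Plk1 placed in the replication set, CHR was in 3 of 17 replication genes (17.6%) and 12 of 16 mitosis genes (75%). NF-Y was then in 10 of 17 and 14 of 16, and E2F in 7 of 17 and 1 of 16. Of the 13 mitosis genes with a CHR match, 5 held more than 1: Bub1b, Ccnb2, Cdk1, Mki67 and Top2a. Counted with the start site as position 0, the first base of the match nearest to it lay from -29 (Ube2c) to 40 (Bub1b) in 12 of them, and at -98 in Mki67. The other match was at -71 in Cdk1, -167 in Ccnb2, -188 in Bub1b and -116 in Mki67, and Top2a held 4 matches, the nearest at -23. A match is a description of letters and not a bound site, and no match in a window says only that these letters are not there.

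**Figure D1:**
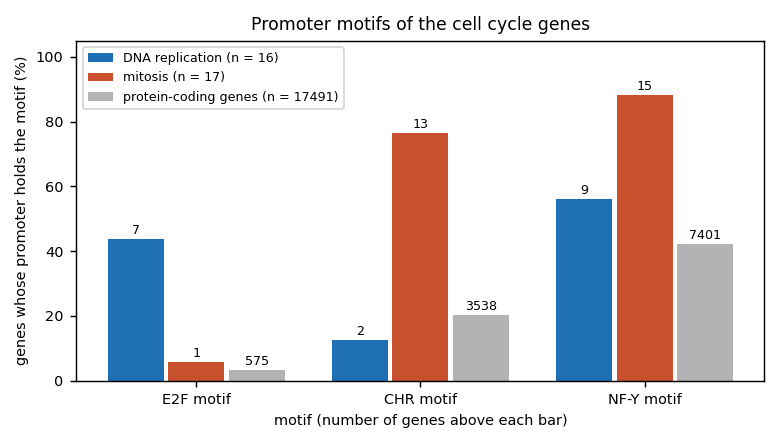
Share of genes whose 300-base promoter window holds each motif, in percent, for replication genes (n = 16), mitosis genes (n = 17) and all protein-coding genes with a window (n = 17491), with the number of genes above each bar. The E2F bar is tallest for replication genes (43.8%) and the CHR bar for mitosis genes (76.5%).

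Neither set differed by as much as 1.5-fold between the ZAG and the control array in any measured gene. The count past 1.5-fold was 0 of 39 in either direction, beside 5.85% of all 22180 genes (2.21% higher and 3.64% lower with ZAG) and 7.29% of the 11610 genes in the range of mean level that the members span. It was also 0 of 39 at 2-fold, where 0.929% of all genes passed. The largest difference was that of Plk1, 1.41-fold lower with ZAG. With 1 array a group, this describes the sizes of the differences and does not show that the genes are equal in the 2 conditions.

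On the log2 scale the replication genes had a median difference, ZAG minus control, of 0.03 over 18 genes, with 10 higher and 8 lower. For the 21 mitosis genes the median was -0.02, with 10 higher and 11 lower. The median of all genes was 0.01. The medians of the 2 sets were thus 0.05 apart, and 0.01 apart with Plk1 placed in the replication set. With that placing the replication median was 0.0143 and the mitosis median 0.0021. For scale, the SD of the difference between probes of the same gene was 0.244. It was taken over 591 genes with more than 1 probe and a mean level no lower than the median gene (3.87). Rrm2, Cdc6 and Birc5 were dimmer than that. This SD measures how far probes with the same symbol differ on these arrays, dim probes included, and not the spread between mice. Of the 39 members, 32 (82.1%) lay within that SD of 0, beside 60.6% of genes in the same range of level. The SD over members was 0.20, and 0.35 over those genes.

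**Figure D2:**
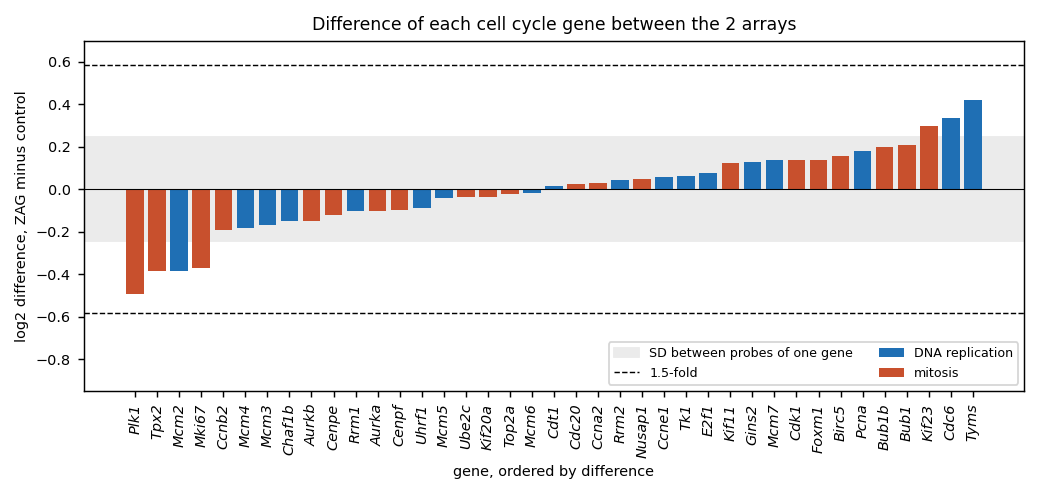
Log2 difference, ZAG minus control, of each of the 39 measured genes, ordered by size, with replication genes in blue and mitosis genes in orange, the grey band at 1 SD between probes of a gene (0.244) and dashed lines at 1.5-fold. Both colours run through the whole order, and no bar reaches a dashed line.

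All 39 genes were above the background gauge on both arrays. The gauge was log2 3.16, the 95th percentile of the mean level of 1390 olfactory and vomeronasal receptor genes, which skin is taken not to use. In 36 genes the mean level was also no lower than the median gene (3.87), and the other 3 were Rrm2, Cdc6 and Birc5. Probes differ in brightness, so levels are compared between the arrays within a gene and not between genes.

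**Figure D3:**
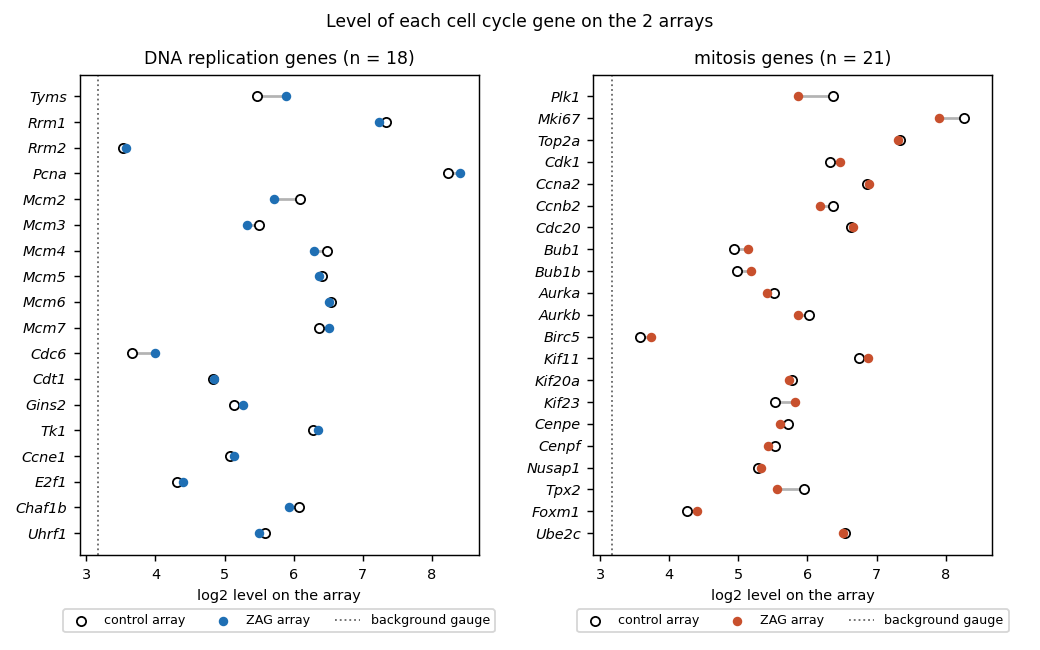
Log2 level of each measured gene on the control array (open circles) and the ZAG array (filled circles), with replication genes on the left and mitosis genes on the right. All points lie above the dotted background gauge at 3.16, and the widest gaps between circles are those of Plk1 and Tyms.

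Among genes that supply nucleotides, Tyms, which encodes thymidylate synthase, was at log2 5.46 in control and 5.88 with ZAG, 0.42 higher (1.34-fold). This was the highest difference of all members, and 93.7% of all genes had a lower one. Tk1, the thymidine kinase gene of the salvage pathway, was at 6.28 and 6.35. The ribonucleotide reductase genes did not share a direction: Rrm1, its large subunit, was at 7.33 and 7.23. Rrm2, its small subunit, was at 3.54 and 3.58 as the mean of 2 probes, of which the brighter was at 5.20 and 5.09 and the dimmer at 1.87 and 2.07, below the gauge. Rrm2 therefore changes sign, to -0.11, when the brighter probe alone is read.

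Of the 6 subunit genes of the MCM2-7 helicase, 5 were lower with ZAG and 1 higher, with a median difference of -0.10. With Plk1 counted in mitosis, Mcm2 was the lowest replication gene, at 6.09 in control and 5.71 with ZAG, differing by -0.38 (1.31-fold). Mcm4 was at 6.48 and 6.30, and Mcm3 at 5.49 and 5.33. The other subunits were closer: the difference was -0.04 in Mcm5 and -0.02 in Mcm6, while Mcm7 was 0.14 higher. The 6 proteins act as a ring of 1 copy each, but their transcripts spanned 0.52 on this scale, from Mcm2 to Mcm7. The 2 ends of this span, Mcm2 and Mcm7, are the replication genes with a window that hold a CHR match, which was seen after the values. They differ in opposite directions, and the helicase gene Mcm4 had no window.

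The 3 genes that load and start the helicase all had differences above 0. Cdc6, a loader of the helicase at origins, was at 3.66 in control and 3.99 with ZAG, differing by 0.34 (1.26-fold) at a level near the gauge. Gins2, of the GINS complex that activates the helicase, was at 5.13 and 5.26. Cdt1, the partner of Cdc6 in loading, hardly differed, at 4.83 and 4.84.

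At the fork, Pcna, the sliding clamp of DNA polymerases, was at 8.23 in control and 8.41 with ZAG. Chaf1b, a subunit of the CAF-1 complex that places histones on new DNA, was at 6.08 and 5.93. Uhrf1, which keeps DNA methylation through replication, was at 5.58 and 5.50. Of the regulators above them, Ccne1, the gene of cyclin E1, was at 5.08 and 5.14, and E2f1, the gene of the activating E2F factor, at 4.32 and 4.39.

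In the mitosis set, Plk1, the kinase of mitotic entry and spindle assembly, was at log2 6.36 in control and 5.87 with ZAG, differing by -0.49. Of all genes, 5.52% had a lower difference, and among genes no dimmer than the median 7.27%, so Plk1 lay inside the spread of the arrays. The Aurora kinase genes were closer to 0. Aurka, of the spindle pole kinase, was at 5.51 and 5.41, and Aurkb, of the kinase of the chromosomal passenger complex, at 6.01 and 5.86. Birc5, which encodes survivin of the same complex, went the other way at a level near the gauge, 3.58 and 3.74.

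The core kinase of mitosis and its cyclins differed little. Cdk1 was at 6.33 in control and 6.47 with ZAG. Ccna2, the cyclin A gene active from S phase into mitosis, was at 6.86 and 6.89. Ccnb2, a mitotic B cyclin gene, was at 6.37 and 6.18, a difference of -0.19.

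Of the 4 genes of the spindle checkpoint and of anaphase, 3 were higher with ZAG. Bub1 and Bub1b, genes of checkpoint proteins at kinetochores, were 0.21 and 0.20 higher: Bub1 was at 4.93 and 5.14, and Bub1b at 4.99 and 5.18. Cdc20, the activator of the anaphase-promoting complex, was at 6.63 and 6.66. Ube2c, its ubiquitin-conjugating enzyme, was at 6.55 and 6.51. Both checkpoint differences were smaller than the SD between probes of a gene.

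Spindle and kinetochore genes held members on both sides. Tpx2, a spindle assembly factor that activates Aurora A, was at 5.95 in control and 5.57 with ZAG, differing by -0.39 (1.31-fold). Kif23, a kinesin of the central spindle in cytokinesis, was at 5.53 and 5.83, a difference of 0.30 (1.23-fold) and the highest of the mitosis set. Kif11, the kinesin that pushes spindle poles apart, was 0.13 higher at 6.75 and 6.87, while Kif20a, a kinesin of cytokinesis, was at 5.77 and 5.74. The kinetochore genes Cenpe (-0.12) and Cenpf (-0.10) were slightly lower, and Nusap1, of a spindle-binding protein, slightly higher (0.05).

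A common marker of dividing cells, Mki67, which encodes the Ki-67 antigen, was at 8.27 in control and 7.90 with ZAG, differing by -0.37 (1.29-fold). Top2a, the topoisomerase that untangles chromosomes and another such marker, was at 7.34 and 7.31. Foxm1, the gene of a transcription factor for mitosis genes, was at 4.25 and 4.39. In all, 7 members lay beyond the SD between probes. Of these, 4 were lower with ZAG (Plk1, Tpx2, Mcm2 and Mki67) and 3 higher (Tyms, Cdc6 and Kif23), so each direction held genes of both sets.

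**Figure D4:**
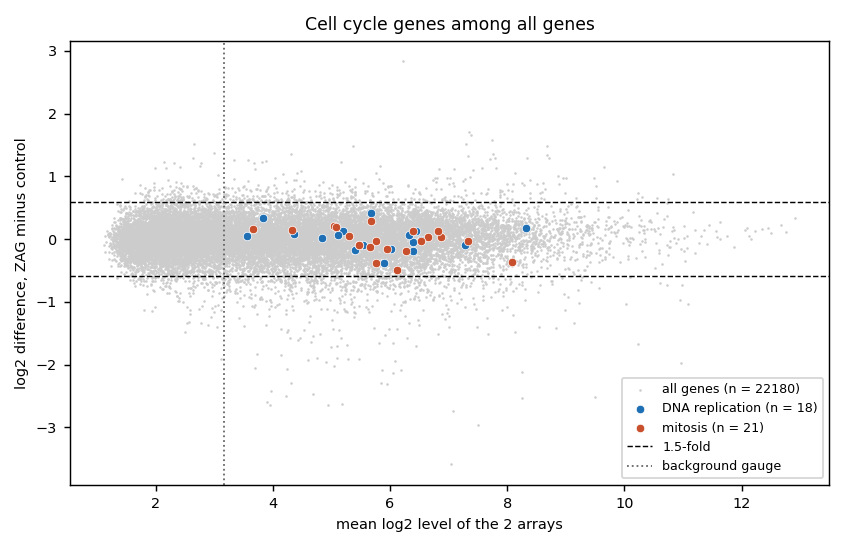
Log2 difference, ZAG minus control, of all 22180 genes (grey) against the mean log2 level of the 2 arrays, with replication genes in blue, mitosis genes in orange, dashed lines at 1.5-fold and the background gauge dotted. The coloured points lie within the grey cloud between the dashed lines, at mean levels from 3.56 to 8.32.

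The medians of members with and without a promoter motif lay less than the SD between probes of a gene apart, a scale for single genes and not the error of a median. With both sets pooled, the widest gap was that of NF-Y, with a median difference of -0.03 in the 23 measured members that hold it and 0.06 in the 9 that do not. Some gaps within a set were wider but rest on few genes. For CHR in replication genes the medians were -0.12 (2 genes with it) and 0.03 (14 without). For NF-Y in mitosis genes they were -0.03 (14 with it) and 0.10 (2 without). The 15 measured members with a CHR match had a median difference of -0.02 and the 17 without one 0.04. The 8 with an E2F match had a median of -0.0025 and the 24 without one 0.04. Over all measured genes with a window, the median was 0.02 in the 7076 with an NF-Y match, 0.01 in the 3301 with a CHR match and 0.03 in the 554 with an E2F match. It was 0.01 in the 9914 without NF-Y, the 13689 without CHR and the 16436 without E2F. For NF-Y and E2F the genes with a match thus had the higher median, unlike among the members.

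Other genes of the same processes came from lists written for this comparison, and their counts past 1.5-fold are read beside the 5.85% of all genes. Of 46 measured DNA replication genes beyond the members, 31 were higher and 15 lower, with a median of 0.08, and 1 passed 1.5-fold each way, a share (4.35%) near that of all genes. Rfc3, of the complex that loads PCNA, was 0.76 higher (4.13 and 4.88), and Chaf1a, the partner of Chaf1b in CAF-1, had a difference of -0.60 (4.87 and 4.27). Next to them came Rpa3, of the single-strand DNA binding complex, at 0.56, Gmnn, the gene of the licensing inhibitor geminin, at 0.42, the DNA ligase gene Lig1 at -0.40 and the checkpoint gene Clspn at -0.36. The median was 0.04 over 63 other mitosis genes, with 36 higher and 27 lower, and 0 of 63 passed 1.5-fold. Their ends were the kinetochore gene Cenph (0.52) and the cohesin protector genes Sgo1 (0.52) and Sgo2a (0.50, with the control value below the gauge) on one side. On the other side were Gtse1 (-0.46), Fam83d (-0.43) and the kinesin gene Kif2c (-0.42).

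Over 26 G1 cyclin, CDK, RB and E2F family genes, the regulators of the G1/S transition, the median was -0.08, with 11 higher and 15 lower. Past 1.5-fold were 2 of them (7.69%), a share near the 5.85% of all genes and the 7.29% of genes in the members' range of level. Cdk6, a kinase partner of the D cyclins, was at 6.87 in control and 6.02 with ZAG, differing by -0.86 (1.81-fold). E2f5, of a repressive E2F, was 0.70 higher (4.46 and 5.16), and these were the only genes of the list past 1.5-fold. E2f8 (-0.47) and E2f7 (-0.45), of the atypical repressive E2Fs, were lower, while the pocket protein gene Rbl1 (0.40) and Lin52 of the MuvB complex (0.40) were higher. The D cyclin genes, named here after their values were seen, had differences of -0.13 in Ccnd1, 0.20 in Ccnd2 and -0.40 in Ccnd3.

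CDK inhibitor and antiproliferative genes centred on -0.01 (median of 16 genes), with 8 higher and 8 lower and 1 past 1.5-fold (6.25%). That gene was Klf4, a transcription factor of differentiating epidermis, at 8.24 in control and 7.52 with ZAG (-0.72). The growth arrest gene Gas1 (-0.55) and Btg2 (-0.21) were the next lowest, and Tob1 (0.39), Cdkn1c (0.34) and Cdkn2b (0.29) the highest. Cdkn1a, the gene of the inhibitor p21, was at 8.88 on both arrays and is named after its value was seen.

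Histone genes, whose transcripts of the replication-dependent kind are made in S phase, had a median of 0.09 (29 genes), and 2 passed 1.5-fold each way. Of these 4 (13.8%), 3 were below the gauge on both arrays, among them both lower ones, H2ac15 and H2bc9, and the higher H4c14. They carry no measured direction and are named after their values were seen. The list was taken by symbol and may hold histone genes not tied to replication, such as the linker histone gene H1f10. Of its genes, 16 were below the gauge on both arrays. Over the 13 with a mean above the gauge, 11 were higher and the median was 0.12. Among these H2ac1 (0.63), H2ac20 (0.32) and H2bc3 (0.29) were the highest and H4c9 (-0.27), H1f10 (-0.07) and H2bc18 (0.09) the lowest. Only H2ac1 of the 13 passed 1.5-fold, at log2 3.48 in control and 4.11 with ZAG. Histone genes are near-identical copies, so single members are uncertain.

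**Figure D5:**
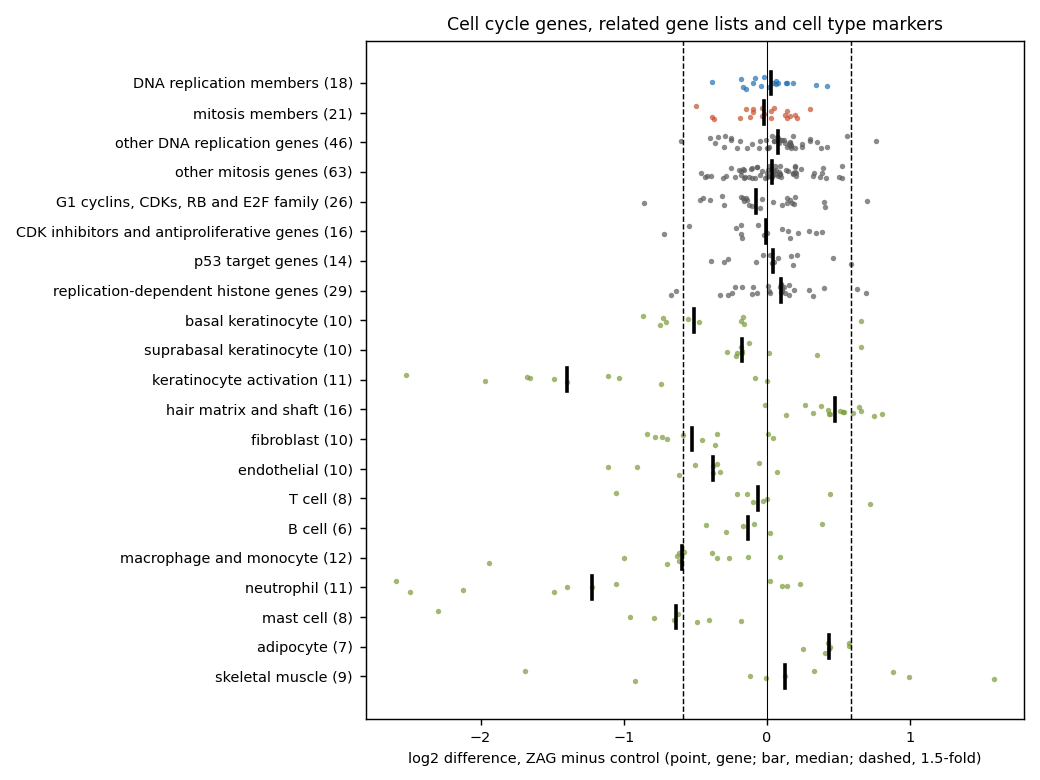
Log2 difference, ZAG minus control, of every measured gene (points) and the median (black bar) in the replication and mitosis members, 6 related lists (grey) and 13 lists of cell type markers (green), with the number of genes in brackets and dashed lines at 1.5-fold. The cell cycle lists centre near 0, while the medians of several marker lists lie beyond -0.5 and those of hair and fat markers near 0.5.

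Markers of basal keratinocytes and of the hair matrix and shaft differed in opposite directions between the same 2 arrays, beside these small differences of the cell cycle genes. For scale, 3.64% of all genes were lower and 2.21% higher with ZAG by at least 1.5-fold. The median of basal keratinocyte markers was -0.51, with 10 of 11 genes measured, 9 lower, of which 4 by at least 1.5-fold, and 1 higher. Their summed linear level was 4225 in control and 3024 with ZAG, and the brightest genes had differences of -0.73 in the keratin gene Krt14 and -0.17 in the integrin gene Itgb1. The 1 higher gene, named after its value was seen, was Krt15 (0.66), a keratin gene of basal cells that also marks hair follicle stem cells. The median of hair matrix and shaft markers was 0.47, with 16 of 18 genes measured, 15 higher and 5 past 1.5-fold, and a summed level of 6235 and 8970. The hair keratin gene Krt33a was 0.65 higher and Tchh, the gene of trichohyalin, 0.44 higher, and Shh was below the gauge on both arrays. Much of this list is keratin genes of the hair shaft, so its median does not measure the dividing matrix alone. Its regulator genes, named after their values were seen, had differences of -0.02 in Foxn1, 0.13 in Dlx3, 0.32 in Lef1, 0.38 in Msx2 and 0.60 in Hoxc13. Keratinocyte activation markers were the lowest keratinocyte list, with a median of -1.40 over 11 genes, of which 9 were lower by at least 1.5-fold. Their summed level was 17525 and 8374, led in brightness by Krt6b (-1.97) and Krt6a (-1.03). In a piece of tissue, fewer cells of a type and less RNA per cell cannot be told apart, and the part of these compartments in the cell cycle values was not tested.

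Markers of immune and stromal cells were mostly lower with ZAG. Of all genes, 3.64% were lower by at least 1.5-fold and 2.21% higher. The median was -0.60 over 12 macrophage and monocyte genes, with 6 past 1.5-fold lower and summed levels of 1428 (control) and 920.0 (ZAG). The brightest were Mrc1 (-0.63) and C1qb (-0.61). For the next lists it was -0.52 over 10 fibroblast genes (9003 and 7238), -0.38 over 10 endothelial genes (689.0 and 434.0), -0.64 over 8 mast cell genes (1382 and 870.4) and -1.22 over 11 neutrophil genes (1456 and 533.0). By at least 1.5-fold, 5 fibroblast, 3 endothelial, 5 mast cell and 7 neutrophil genes were lower and 0 higher. The brightest fibroblast genes were Dcn (0.04) and Col1a1 (-0.70). The brightest endothelial genes were Cdh5 (-0.91) and Eng (-1.11), and those of mast cells were Cpa3 (-0.65) and Mcpt4 (-0.62). In the neutrophil list the defining genes Ly6g, Ngp, Camp and Elane were below the gauge on both arrays, and its brightest genes, S100a8 (-1.40) and S100a9 (-1.49), are also made by keratinocytes. Its remaining genes, named after their values were seen, were above the gauge in control and lower with ZAG. These were Mmp9 (7.11 and 4.99), Cxcr2 (6.71 and 5.66), Csf3r (5.23 and 4.01), Trem1 (5.47 and 2.98) and Clec4e (5.19 and 2.60), the last 2 below the gauge with ZAG. T cell genes had a median of -0.06 over 8 of 10 genes, with Cd8a below the gauge on both arrays and summed levels of 139.8 and 145.6. The T cell receptor complex genes Cd3g (0.72) and Cd3e (-0.10) were its brightest. Of the 6 T cell genes with a mean above the gauge, 1 was higher and the median was -0.12. The largest difference of the list, named after its value was seen, was -1.06 in Cd4 (4.60 and 3.54). All 6 measured B cell genes, Cd22, Pax5, Cd79a, Cd79b, Blk and Ms4a1, were below the gauge on both arrays. The median of 10 suprabasal keratinocyte genes was -0.18 (15752 and 14799), with Krt10 (0.01) and Krt1 (-0.13) the brightest. For 7 fat cell genes it was 0.43 (2256 and 3233), led in brightness by Fabp4 (0.57) and Retn (0.44). Past 1.5-fold were 1 T cell gene each way, 1 suprabasal gene higher and 0 fat cell genes. Skeletal muscle genes went both ways beneath a median of 0.13 over 9 (1547 and 2033): 3 were higher and 2 lower by at least 1.5-fold, from -1.69 in Myh2 to 1.59 in Myh4, both named after their values were seen. Their brightest were Acta1 (0.13) and Tnnt3 (0.88). The part of these cells in the cell cycle values was not tested either.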

How the data were processed

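The authors deposited 1 table with a log2 value per probe and 1 column per group. The log2 scale was inferred from the deposited values (0.866 to 13.19). The sources used here do not state the background correction or normalization. Array number limits the precision. Per the labels' protocols, RNA came from a column kit and biotin was put on fragmented sense cDNA. Of 33793 probes, 23521 had 1 gene symbol in the platform annotation, 1814 several and 8458 none. Probes with 1 symbol were used, several probes of a gene were averaged, and the deposited control value was subtracted from the ZAG value. With 1 array per group no test was run. A difference was counted at 1.5-fold, and at 2-fold, in either direction, with no filter on level. The members and lists were chosen with earlier results of these data known. All members are named, with the 3 highest and 3 lowest genes above the background gauge in each related list, and the 2 brightest and any below the gauge in each marker list; exceptions are marked. Promoter windows came from RefSeq (GRCm38.p6), and a gene with several windows was counted once if any held the motif. The functions were checked on simulated data. Alternatives were median centring, quantile normalization, loess on level (span 0.3), the brightest probe, filters on level, list means, the place of Plk1, a shorter window and a shorter E2F motif. Scripts ran in Python 3.11.15 with pandas 2.3.3, numpy 2.4.6 and, for loess, statsmodels 0.14.6.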

Additional observations from a re-analysis of the deposited data

Results flagged for a closer look

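The comparison leaves out 7 probes that the platform annotation gives to a member together with another gene, and they name neither gene here. Of these, probe 17389920 was picked out because it was above the background gauge with ZAG and at least 1.5-fold above the control array as deposited. It was at log2 2.50 in control, below the gauge, and 3.33 with ZAG, a difference of 0.84, or at least 1.12-fold with the gauge as the floor. The other probes had differences from -0.40 to 0.43. With 1 array per group, no sample has others of its group beside it.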

How the results depend on the processing

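No paired analysis was possible because each group has 1 array, and no replicate could be left out. No member passed 1.5-fold under any of the scalings that were tried. The lowest difference stayed from -0.52 to -0.47 (Plk1) and the highest from 0.39 to 0.43 (Tyms). Filters on level only drop genes, and the brightest-probe rule can change only Rrm2, the 1 member with 2 probes. Those alternatives therefore could not test the differences of the other members. The median of the replication set minus that of the mitosis set ran from 0.01 (Plk1 by its position) to 0.06 (loess) over 8 alternatives. The medians are so close to 0 that their signs are not stable. That of the replication set was -0.0025 with the brightest probe or at or above the median level, and that of all members was from -0.02 to -0.0080 under 5 alternatives and 0.01 as deposited. Among promoter motifs, CHR matches in mitosis genes went from 13 to 8 of 17 in the 250 bases before the start site, against 18.4% of protein-coding genes, since the shorter window leaves out matches just after it. With the shorter E2F letters GCGGGAA or GGCGGGA, matches went from 1 to 5 of 17 mitosis genes and from 7 to 9 of 16 replication genes, against 19.5% of protein-coding genes. Low signal limits Cdc6 and Birc5, whose levels lay near the background gauge, and 1 of the 2 probes of Rrm2, which was below it.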

Other observations

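Genes induced by p53, the factor that halts the cell cycle after damage, had a median difference of 0.04 over 14 of 16 listed genes, with 9 higher and 5 lower. Ccng1, of the p53-induced cyclin G1, was the 1 gene past 1.5-fold, at log2 8.21 in control and 8.80 with ZAG (0.59). Trp53inp1 (0.46) and Sesn1 (0.21) were the next highest, and Zmat3 (-0.39), Gadd45b (-0.30) and Sesn2 (-0.27) the lowest. Of all genes, 5.85% passed 1.5-fold.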
